A study of Homo sapiens with 12 samples.

Results

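Box C/D snoRNAs are short nuclear RNAs whose rows carry SNORD names, and 52 of the 256 SNORD rows in the deposited tables were above 1 FPKM in at least 1 of 12 libraries. FPKM are read fragments scaled for transcript length and for the size of the library, and the 52 rows were chosen by their FPKM in single libraries alone. The libraries came from 2 cell lines of ovarian cancer, KURAMOCHI (here Ku) and COV362 (here Cov), after 6 hr with DMSO, the vehicle, or with THZ1 at 50 nM or 250 nM, a covalent inhibitor of the transcriptional kinase CDK7 that also inhibits CDK12 and CDK13. Each of the 6 groups held 2 libraries, labelled as biological replicates, from untransduced cells of 1 line, in RPMI medium for Ku and in DMEM for Cov. The poly(A) RNA was read from 1 end over 75 bases, after addition of ERCC spike-in RNAs to RNA normalized by cell count.

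A box C/D snoRNA folds so that its C box, near the 5′ end, and its D box, near the 3′ end, come together and bind the proteins SNU13, NOP56, NOP58 and fibrillarin (FBL). The guide stretch before a D box pairs with ribosomal RNA, and FBL then methylates the 2′ hydroxyl of the paired base. Most human members lie in introns of host genes, often ribosomal protein genes or the noncoding SNHG genes and GAS5, and are released by splicing, debranching and trimming of both ends. Mature box C/D snoRNAs carry no poly(A) tail. Reads from the mature snoRNA and from unspliced RNA of its host lie on the same bases and cannot be told apart in these tables.

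The sequences below show the parts of the class that the results turn on. GENCODE positions lifted to GRCh37, the build of the files, were found for 42 of the 52 rows on the chromosome that RefSeq gives, and 17 of these had the RefSeq length. The capitals mark the core of the C box, TGATG, within the first 25 bases, and the D box, CTGA, within the last 15 bases, on the strand of the snoRNA. Of 389 SNORD entries in GENCODE, 61.2% held both motifs in these windows, against 0 of 398 entries of box H/ACA snoRNAs (SNORA names), the other large snoRNA class. SNORD110, of the length of the reads, SNORD45A, SNORD12 and SNORD35A stand for rows seen in DMSO libraries. SNORD15A, SNORD97 and SNORD17 are among the longest rows. Each of these 7 lies in an intron of its host in the GENCODE basic transcripts that span it, except that 1 of 5 ZFAS1 transcripts had an exon over SNORD12.
SNORD110, NOP56, chr20:2634858-2634932, plus strand: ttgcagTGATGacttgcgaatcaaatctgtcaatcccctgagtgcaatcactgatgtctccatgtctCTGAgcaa
SNORD45A, RABGGTB, chr1:76253574-76253657, plus strand: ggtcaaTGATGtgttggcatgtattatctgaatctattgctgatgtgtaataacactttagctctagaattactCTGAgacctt
SNORD35A, RPL13A, chr19:49994432-49994517, plus strand: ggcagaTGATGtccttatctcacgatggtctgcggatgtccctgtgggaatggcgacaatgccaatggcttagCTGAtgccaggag
SNORD12, ZFAS1, chr20:47897220-47897309, plus strand: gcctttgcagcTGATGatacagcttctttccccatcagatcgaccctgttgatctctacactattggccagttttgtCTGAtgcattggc
SNORD15A, RPS3, chr11:75111435-75111582, plus strand: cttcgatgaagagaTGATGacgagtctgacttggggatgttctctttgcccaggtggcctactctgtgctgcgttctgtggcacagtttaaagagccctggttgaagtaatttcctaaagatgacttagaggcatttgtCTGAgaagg
SNORD97, EIF4G2, chr11:10823014-10823155, minus strand: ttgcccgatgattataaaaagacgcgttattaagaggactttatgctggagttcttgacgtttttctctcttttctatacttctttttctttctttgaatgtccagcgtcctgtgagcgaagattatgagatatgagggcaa
SNORD17, SNX5, chr20:17943353-17943589, minus strand: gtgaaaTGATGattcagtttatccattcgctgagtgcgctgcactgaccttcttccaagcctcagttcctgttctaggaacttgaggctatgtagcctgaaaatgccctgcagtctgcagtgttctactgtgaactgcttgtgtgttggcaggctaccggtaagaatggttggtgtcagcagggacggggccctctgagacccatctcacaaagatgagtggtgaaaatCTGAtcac

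Both motifs were found in 6 of these 7 sequences, and SNORD97 held neither in the windows searched. In the SNORD116 cluster, repeated copies within SNHG14 on chromosome 15, 3 copies had the same FPKM in 1 library and the sequences show how alike they are. SNORD116-17 and SNORD116-19 had 0 mismatches over 92 bases, and SNORD116-15 differed from each by 1 base.
SNORD116-15, chr15:25326434-25326525, plus strand: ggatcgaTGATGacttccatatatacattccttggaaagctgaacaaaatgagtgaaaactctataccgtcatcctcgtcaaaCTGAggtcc
SNORD116-17, chr15:25328735-25328826, plus strand: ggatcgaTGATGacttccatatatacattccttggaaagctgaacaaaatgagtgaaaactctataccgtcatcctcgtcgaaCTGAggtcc
SNORD116-19, chr15:25331674-25331765, plus strand: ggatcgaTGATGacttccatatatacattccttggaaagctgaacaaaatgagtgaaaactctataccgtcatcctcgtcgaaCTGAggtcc

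The tables hold no zeros, and most values of the 52 rows lay at a floor. Of 624 values, 453 (72.6%) were between 0.0569 and 0.15 FPKM, and the other 171 were between 4.77 FPKM, SNORD17 in the first Cov 50 nM library, and 8180 FPKM, SNORD47 in the second Ku DMSO library. No value lay between these ranges, so a row was either at the floor or well above the minimum of 1 FPKM. The rows nearest to that minimum from inside were SNORD15A and SNORD17, with highest values of 13.9 and 14.4 FPKM. From outside the nearest was SNORD86, with a highest value of 0.132 FPKM, and the other 203 rows outside reached 0.119 FPKM. SNORD3, SNORD13 and SNORD118, box C/D RNAs with promoters of their own, were not analysed here.

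**Figure D1:**
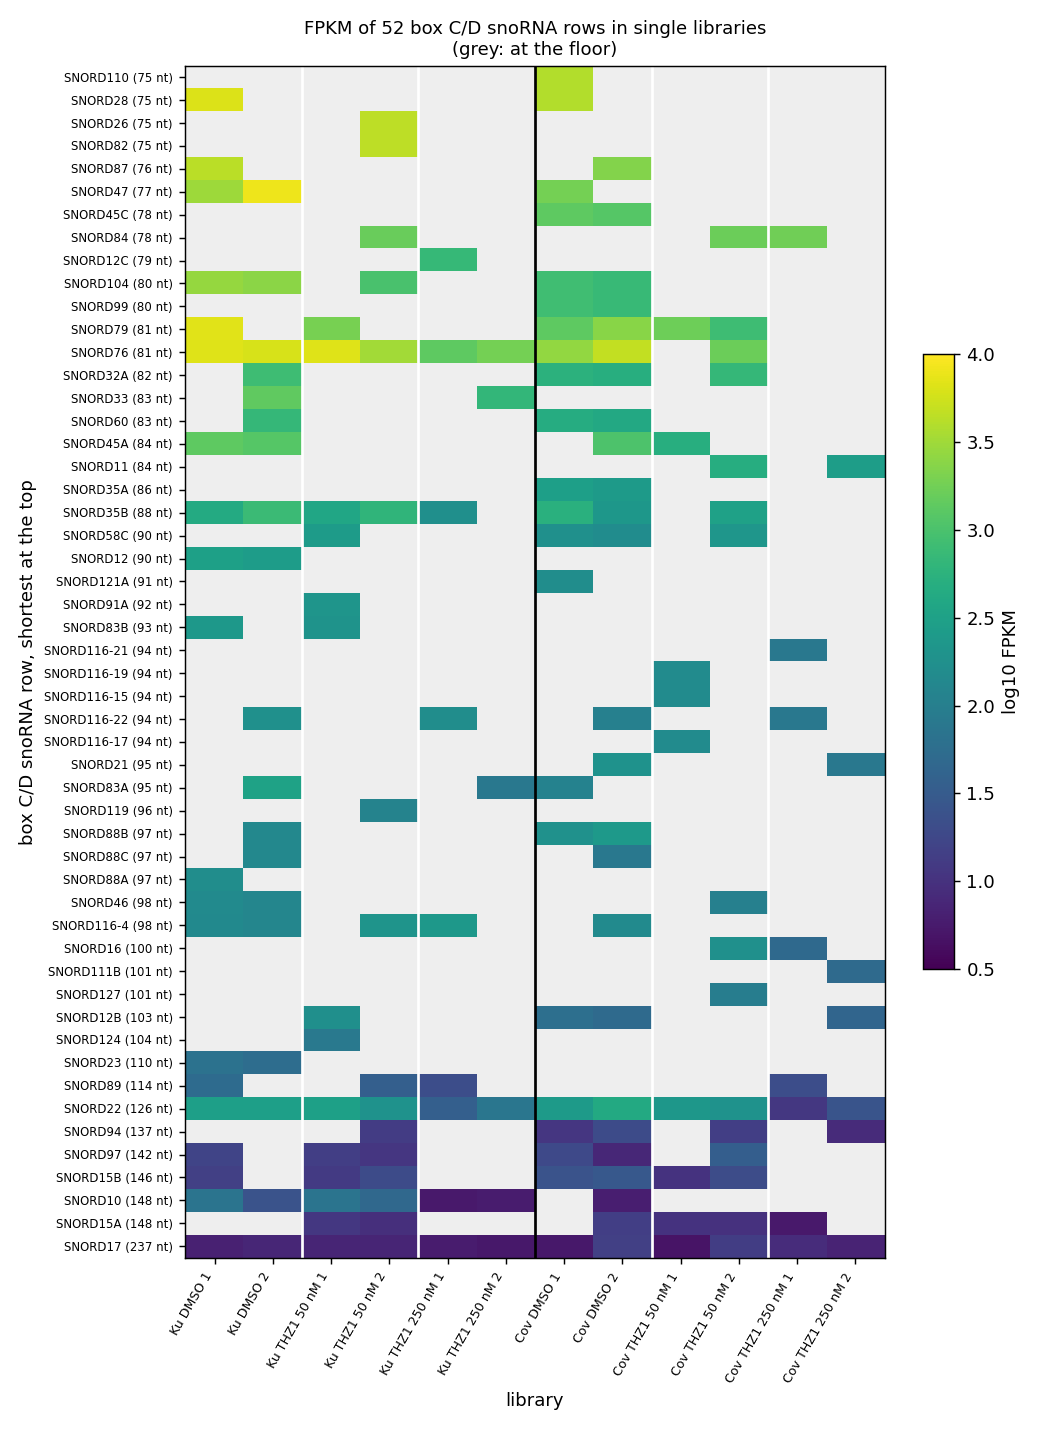
Heat map of log10 FPKM for the 52 box C/D rows (vertical axis, ordered by RefSeq length in nt, the shortest at the top) in the 12 libraries (horizontal axis, Ku to the left of the black line and Cov to the right). Grey cells are at the floor, 453 of 624, and only SNORD17 and SNORD22 have colour in all 12 columns.

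Few rows were seen in many libraries. SNORD17 and SNORD22 were above the floor in all 12 libraries, 7 rows in 6 to 11, 15 in 3 to 5, and 28 in 1 or 2. Both lines showed 27 of the rows, Ku alone 11 and Cov alone 14. By treatment, 23 rows were seen with and without THZ1, 14 in DMSO libraries only and 15 in THZ1 libraries only. A row seen in 1 or 2 libraries, or in DMSO libraries only, entered through those libraries, so its groups had to differ and its call is no test.

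Which rows appeared, and how high their values stood, went with length. The 52 rows were 75 to 237 nt long in RefSeq, with a median of 94 nt. None of the 97 SNORD rows shorter than the 75-base reads was above 1 FPKM. The share seen was 31% of 29 rows of 75 to 79 nt, 18% of 50 rows of 80 to 84 nt, 34.5% of 58 rows of 85 to 99 nt and 66.7% of 21 rows of 100 nt or more. The median of the rows' highest FPKM went the other way, from 4378 FPKM at 75 to 79 nt through 1363 and 186 to 59.9 FPKM at 100 nt or more. Across the 52 rows, Spearman's rho between highest FPKM and length was -0.898, and within single libraries it lay between -1.0 and -0.897 over the rows seen there. These rows share libraries and the FPKM scale, which divides by length, and the order of their values is therefore not an order of molecules per cell.

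**Figure D2:**
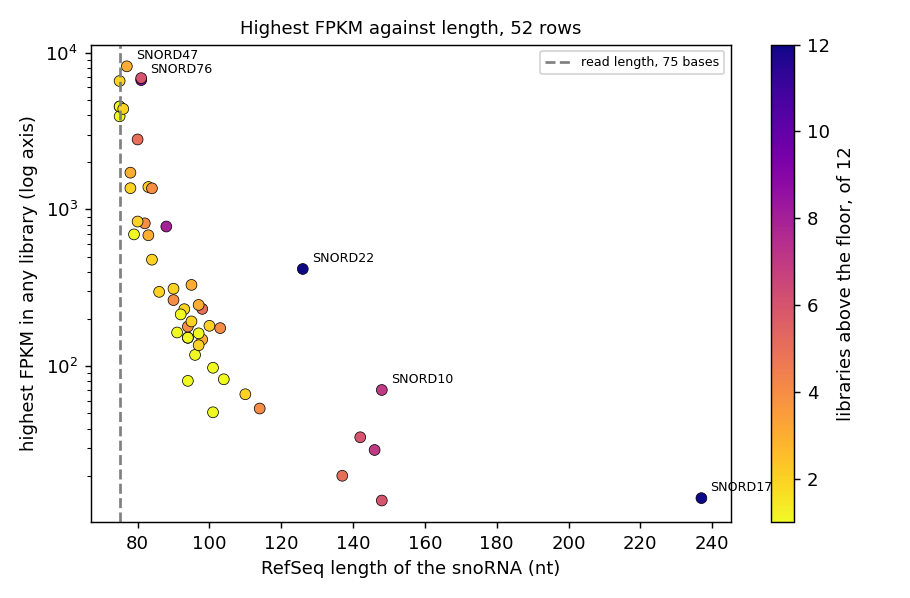
Highest FPKM of each of the 52 box C/D rows in any library (vertical log axis) against RefSeq length in nt (horizontal axis), coloured by the number of libraries above the floor. The dashed line is the read length of 75 bases, and values go from up to 8180 FPKM beside it to 14.4 FPKM for SNORD17 at 237 nt.

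Values of different rows often coincided within a library. In 6 sets of 2 or 3 rows the FPKM was equal to 6 decimal places, and all 6 sets joined rows of 1 length. SNORD26, from SNHG1, and SNORD82, from NCL, both had 4534 FPKM in the second Ku 50 nM library and were at the floor in the other 11 libraries. SNORD110, from NOP56, and SNORD28, from SNHG1, both had 3926 FPKM in the first Cov DMSO library. SNORD104 and SNORD99, each of 80 nt and in the hosts SNHG25 and SNHG12, matched in both Cov DMSO libraries, at 837 FPKM in the first and 725 FPKM in the second. The near-identical copies SNORD116-15, SNORD116-17 and SNORD116-19 all had 152 FPKM in the first Cov 50 nM library and were at the floor elsewhere. Reads of SNORD116-17 and SNORD116-19, with 0 mismatches, cannot be assigned to 1 of the pair. Among all pairs of equal length seen in the same library, 8 of 21 had equal values.

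Replicates showed the same kind of steps. In Cov DMSO, 17 rows were above the floor in both libraries, and in 8 of them the first replicate was 1.14 to 1.16 times the second. In 3 more rows, SNORD76, SNORD79 and SNORD94, the ratio was 0.5 times that value within 4%, and in SNORD35B and SNORD97 it was 2 times that value. SNORD45C, with 1366 and 1188 FPKM, and SNORD12B, with 59.1 and 51.7 FPKM, differed by the same ratio although their levels were far apart. In Ku DMSO, 5 of 12 rows had ratios from 1.13 to 1.17, among them SNORD12, SNORD45A and SNORD104. Read counts are not given, so how many reads lie behind a step was not tested.

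**Figure D3:**
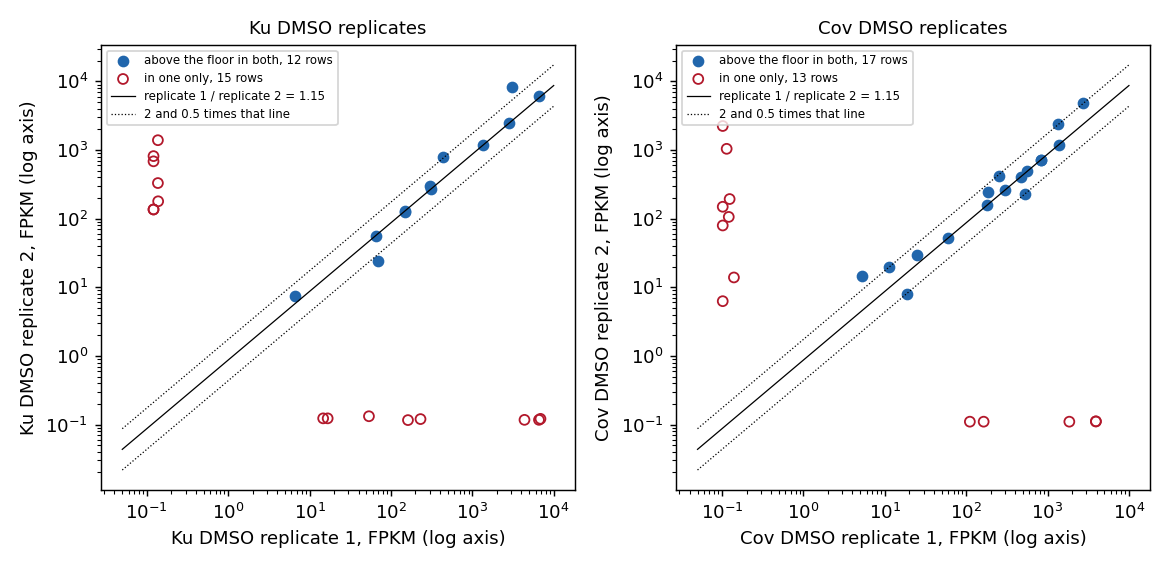
FPKM of box C/D rows in replicate 2 (vertical log axis) against replicate 1 (horizontal log axis) of Ku DMSO and Cov DMSO. Filled points were above the floor in both libraries (12 and 17 rows), open points in 1 only (15 and 13 rows), and lines mark a ratio of 1.15 with 2 and 0.5 times that ratio.

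A large share of the rows seen in a group appeared in only 1 of its replicates. That share was 55.6% of 27 rows in Ku DMSO, 63.6% of 22 at 50 nM and 63.6% of 11 at 250 nM. In Cov cells it was 43.3% of 30 rows in DMSO, 75.0% of 20 at 50 nM and 84.6% of 13 at 250 nM. For all active rows, the 14251 rows above 1 FPKM in at least 1 library that are not ERCC RNAs, the same share lay between 3.05% and 5.58%. SNORD79, a GAS5 snoRNA, had 6881 FPKM in the first Ku DMSO library and was at the floor in the second. SNORD33, in RPL13A, was at the floor in the first Ku DMSO library and had 1390 FPKM in the second.

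The number of box C/D rows above the floor was lower in THZ1 libraries. It was 20 and 19 in the Ku DMSO libraries, 14 and 16 at 50 nM, and 9 and 6 at 250 nM. In Cov cells it was 22 and 25 in DMSO, 9 and 16 at 50 nM, and 8 and 7 at 250 nM. No treated library reached the DMSO libraries of its line, and the 2 doses did not overlap either. An exact two-sided permutation test of 2 libraries against 2 cannot give a p below 0.333, so these counts carry no test. Active rows above 1 FPKM also became fewer, likewise without overlap between the doses. They numbered 12652 and 12466 in Ku DMSO, 11676 and 11450 at 50 nM, and 9736 and 10029 at 250 nM. In Cov cells they numbered 13028 and 13218 in DMSO, 11591 and 11804 at 50 nM, and 10628 and 10642 at 250 nM. Box H/ACA rows numbered 41 and 40 in Ku DMSO, 25 and 28 at 50 nM, and 14 and 27 at 250 nM. In Cov cells box H/ACA rows numbered 47 and 53 in DMSO, 30 and 41 at 50 nM, and 38 and 32 at 250 nM. Their 2 doses overlapped in both lines. ERCC rows above 1 FPKM numbered 50 to 58 in every library, with 54 to 57 in treated Ku and 51 to 52 in treated Cov libraries.

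**Figure D4:**
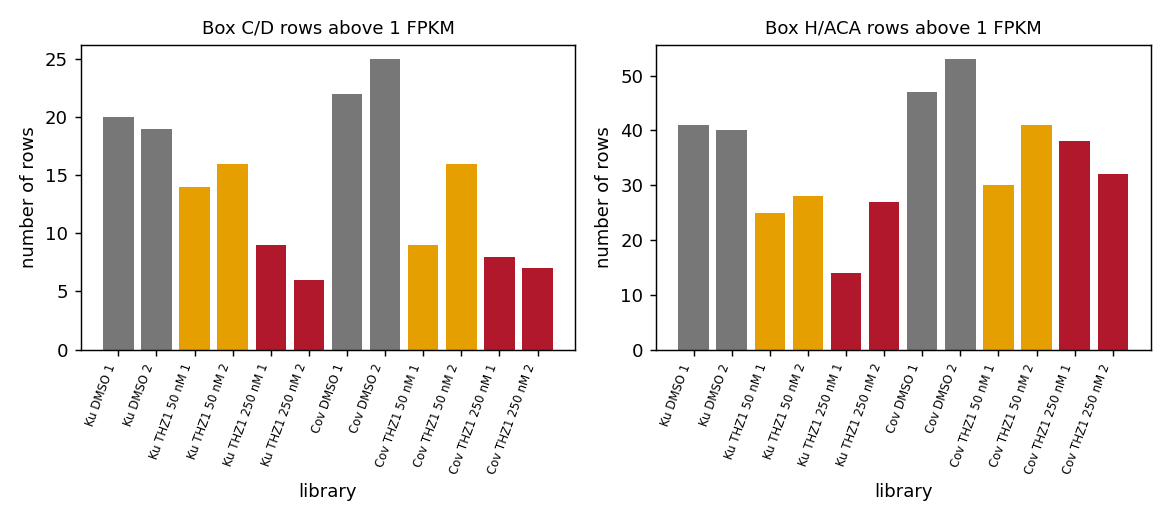
Number of rows above 1 FPKM in each of the 12 libraries (bars from 0, grey for DMSO, orange for 50 nM and red for 250 nM THZ1), for the 52 box C/D rows on the left and for box H/ACA rows on the right. Box C/D bars stand at 19 to 25 in DMSO and at 6 to 9 at 250 nM.

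Changes were tested with limma on log2(FPKM + 1) in each line, with p-values adjusted over the 14251 active rows by the Benjamini-Hochberg method. Calls required an adjusted p below 0.001 with a log2 fold change of more than 0.5 in size. Most called box C/D rows were at the floor in both libraries of 1 group, where no fold can be given, and for these the values alone are given.

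In Ku cells at 50 nM, 5 of the 52 rows fell and 1 rose. Over all active rows 11.3% were called lower and 0.0842% higher. The 5 rows were SNORD47, SNORD45A, SNORD12, SNORD46 and SNORD23, and all were at the floor in both 50 nM libraries. SNORD47, SNORD12 and SNORD23 were seen in DMSO libraries only, so their falls follow from the choice of rows, while SNORD45A and SNORD46 were also seen in THZ1-treated Cov cells. SNORD47, the shortest of them and a GAS5 snoRNA, had 3085 and 8180 FPKM in DMSO. SNORD45A, in RABGGTB, had 1363 and 1183 FPKM in DMSO, SNORD12, in ZFAS1, 312 and 268 FPKM. SNORD46 had 148 and 127 FPKM, and SNORD23, in NOP53, 66.2 and 56.3 FPKM. In these 4 rows the DMSO replicates lay close together, while those of SNORD47 were far apart. SNORD15A, in RPS3, went the other way, with both DMSO libraries at the floor and 11.8 and 9.34 FPKM at 50 nM. The call on SNORD15A was lost without the first Ku DMSO library (adjusted p = 0.00142, limma) and without either 250 nM library (0.00131 and 0.00128), and that on SNORD47 without either 250 nM library (0.00118 and 0.00113). Without a minimum FPKM the calls on SNORD15A, SNORD47 and SNORD23 were lost (adjusted p = 0.00164 for each, limma). Where a group was left with 1 library, that library was assumed to vary like those of the other groups. Without the first or second Ku DMSO library 9 and 8 of the 52 rows were called lower, beside 0.386% and 0.919% of all active rows. Without the first or second 50 nM library 6 and 5 were called higher, beside 0.147% and 0.119%. Without either 250 nM library, which the comparison does not use but the spread does, 4 of the 52 rows and 0.0421% of all active rows were called lower.

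At this dose 5 rows were above the floor in all 4 Ku libraries compared, and none of these was called. Of all active rows above 1 FPKM in these 4 libraries, 10.8% were called lower. SNORD22 had 303 and 299 FPKM in DMSO and 311 and 195 FPKM at 50 nM (adjusted p = 0.528, limma). SNORD76 had 6652 and 6094 FPKM in DMSO against 6682 and 3262 FPKM (adjusted p = 0.305, limma), and SNORD35B 436 and 778 FPKM against 373 and 622 FPKM. SNORD10 had 69.7 and 24.5 FPKM against 70.5 and 48.5 FPKM, and SNORD17 6.65 and 7.43 FPKM against 7.26 and 7.38 FPKM. In all 5 rows the groups overlapped. The largest increases among rows with a mean of 10 FPKM or more were each made by 1 library, with SNORD26 and SNORD82 at 4534 FPKM and SNORD84 at 1578 FPKM in the second 50 nM library and at the floor in the other 3.

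In Ku cells at 250 nM, 6 of the 52 rows fell and 0 rose, while 68.6% of all active rows were called lower and 0.0491% higher. SNORD47, SNORD45A, SNORD12, SNORD46 and SNORD23 were at the floor in both 250 nM libraries, against the same DMSO libraries as above. Of the 6 falls, 3 (SNORD47, SNORD12 and SNORD23) follow from the choice of rows. The sixth row, SNORD22, was the only called row with all its libraries above the floor. SNORD22 is one of the snoRNAs that SNHG1, a noncoding host gene, carries in its introns. Its 2 libraries at 250 nM had 36.1 and 75.1 FPKM, both below the 299 and 303 FPKM of DMSO and the 195 and 311 FPKM of 50 nM. The log2 fold change of SNORD22 was -2.51 (SE 0.36), with an adjusted p of 0.000759 in limma, beside a median of -1.11 over all active rows. The call was lost without the first or the second DMSO library (adjusted p = 0.00624 and 0.00547, limma) and without the first 250 nM library (log2 fold change -1.99, adjusted p = 0.00115). It was also lost without a minimum FPKM (adjusted p = 0.00351, limma), with no trend (0.00171) and with the replicate number as a block (0.00179). Giving all libraries the same median FPKM, without the spike-in scale, left a log2 fold change of -0.55 for SNORD22 and no call (adjusted p = 0.179, limma). Under that scaling 5 of the 52 rows were called lower and 1, SNORD17, higher, against 1655 lower and 3831 higher of all active rows. Without 1 of the DMSO libraries 10 and 11 rows were called lower, beside 51.2% and 63% of all active rows, and at an unadjusted p under 0.05 in limma 0 were higher, beside 0.182% of all active rows.

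Other rows that stayed above the floor at 250 nM in Ku cells missed the threshold. Of all active rows above 1 FPKM in all 4 libraries of DMSO and 250 nM, 77.4% were called lower. SNORD76, the row with the highest mean FPKM over the 12 libraries, had 1355 and 1867 FPKM, below all 4 libraries of DMSO and 50 nM. Its log2 fold change was -2.0 (SE 0.34, adjusted p = 0.00164, limma). SNORD10, in the translation factor gene EIF4A1, had 5.47 and 5.78 FPKM, likewise below the other 4 Ku libraries, with a log2 fold change of -2.68 (SE 0.46, adjusted p = 0.00168, limma). That value was -1.94 without the first DMSO library, -3.42 without the second, and -0.85 with each library scaled to the same median. SNORD10 was called lower with a pseudocount of 0.1 and with the replicate number as a block (adjusted p = 0.000626 and 0.000914, limma). SNORD17 had 5.90 and 5.39 FPKM, a log2 fold change of -0.27 (SE 0.12, adjusted p = 0.0695, limma). SNORD104, in SNHG25, went from 2794 and 2470 FPKM in DMSO to the floor in both 250 nM libraries, with 980 FPKM in 1 of the 50 nM libraries, and was not called (adjusted p = 0.00953, limma). SNORD12C, in ZFAS1, had 693 FPKM in the first 250 nM library alone and was at the floor in all other 11 libraries.

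In Cov cells at 50 nM, 6 of the 52 rows fell and 0 rose, beside 70.5% lower and 0.0772% higher over all active rows. The 6 rows were SNORD45C, SNORD104, SNORD99, SNORD60, SNORD35A and SNORD88B, all at the floor in both 50 nM libraries. All but SNORD104 were seen in DMSO libraries only, so 5 of the 6 falls follow from the choice of rows. SNORD45C, in RABGGTB like SNORD45A, had 1366 and 1188 FPKM in DMSO. SNORD60, in SNHG19, had 471 and 407 FPKM, SNORD35A, in RPL13A, 298 and 258 FPKM, and SNORD88B, in C19orf48P, 188 and 246 FPKM. SNORD104 and SNORD99 had the shared values of 837 and 725 FPKM. SNORD45C, SNORD99 and SNORD35A were at the floor in all 6 Ku libraries, and SNORD47, SNORD12 and SNORD23 were at the floor in at least 1 DMSO library of Cov cells. The difference between the lines was not tested, since the tables were normalized separately. Without 1 of the Cov DMSO libraries 10 and 11 rows were called lower, beside 48.4% and 30.3% of all active rows. Without the second 50 nM library 12 were lower and 3 higher, beside 69.7% and 0.211%, and without the first 6 were lower and 2 higher, beside 59.6% and 0.182%. At an unadjusted p under 0.05 in limma 0 were higher, beside 0.4% of all active rows.

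Rows above the floor in all 4 libraries at this dose were SNORD22, SNORD79, SNORD15B and SNORD17, and none was called. Of all active rows above 1 FPKM in these 4 libraries, 78.3% were called lower. SNORD22 had 252 and 417 FPKM in Cov DMSO and 228 and 194 FPKM at 50 nM, without overlap (log2 fold change -0.62, SE 0.37, adjusted p = 0.141, limma). SNORD79 had 1335 and 2387 FPKM in DMSO and 1714 and 809 FPKM at 50 nM, and the groups overlapped, as did those of SNORD17. SNORD15B, in RPS3, had 25 and 29.2 FPKM against 10.4 and 20.5 FPKM (adjusted p = 0.0192, limma), and was called without the second 50 nM library (log2 fold change -1.29). The largest increases again came from 1 library. SNORD84, in the helicase gene DDX39B, had 1621 FPKM, SNORD11, in NOP58, 478 FPKM, and SNORD16, in RPL4, 181 FPKM, all in the second Cov 50 nM library and at the floor in the first and in both DMSO libraries.

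In Cov cells at 250 nM, 9 of the 52 rows fell and 0 rose, beside 84% lower and 0.105% higher over all active rows. SNORD45C, SNORD104, SNORD99, SNORD60, SNORD35A and SNORD88B were at the floor as at 50 nM, and for 5 of these, all but SNORD104, the fall follows from the choice of rows. SNORD79 and SNORD15B, both seen in all 4 libraries of DMSO and 50 nM, were now at the floor in both libraries. SNORD22 had 11.6 and 25.6 FPKM, below the other 4 Cov libraries. Its log2 fold change was -4.15 (SE 0.37), with an adjusted p of 2e-05 in limma, beside a median of -1.31 over all active rows. Scaling to the same median left SNORD22 at a log2 fold change of -2.12 with an adjusted p of 0.00495 in limma, which does not meet the threshold. SNORD17 had 8.83 and 7.04 FPKM at 250 nM, between its DMSO values of 5.28 and 14.4 FPKM, and its log2 fold change was -0.15 (SE 0.52, adjusted p = 0.8, limma). Without the second DMSO library, or either 50 nM library, 14 rows were called lower, beside 73.3% and 86.6% of all active rows. Without the first or second 250 nM library 1 and 2 rows were called higher, beside 0.203% and 0.182%. At an unadjusted p under 0.05 in limma 0 were higher, beside 0.309% of all active rows. SNORD84, with 1716 FPKM, and SNORD116-21, with 80.6 FPKM, were above the floor in the first 250 nM library alone of those compared, and SNORD11, with 280 FPKM, in the second alone.

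The rows at the floor in both treated and both DMSO libraries, between 14 and 24 in each comparison, could not change in it. The median log2 fold change of the 52 rows was -0.02 in Ku and -0.61 in Cov cells at 50 nM, and -0.19 and -1.02 at 250 nM. The medians over all active rows were -0.40, -0.85, -1.11 and -1.31 in the same order. The median standard error was 1.15 for the 52 rows and 0.119 for all active rows in Ku cells, and 1.43 and 0.106 in Cov cells. Rows above 1 FPKM in both DMSO libraries and neither treated library numbered 5 of 52 (9.62%) in Ku at 50 nM and 6 (11.5%) at 250 nM, where all active rows gave 5.19% and 16%. In Cov cells they numbered 7 (13.5%) and 13 (25%), beside 7.47% and 15.1% of all active rows. Of these rows, 3 in Ku and 5 in Cov cells at each dose were seen in DMSO libraries only. They entered through those libraries, so these shares are no test. The opposite pattern was shown only by SNORD15A in Ku cells at 50 nM. Over all active rows it was shown by 0.203% and 0.0842% in Ku and by 0.105% and 0.0982% in Cov cells.

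Between the doses, 1 row fell in Ku cells and 3 in Cov cells, beside 36% and 24.4% of all active rows. In Ku cells this was SNORD15A, which returned to the floor in both 250 nM libraries. In Cov cells it was SNORD22, SNORD79 and SNORD15B. No row rose from 50 nM to 250 nM in either line, beside 0.0421% and 0.0842% of all active rows, and at an unadjusted p under 0.05 in limma the count was also 0, beside 0.309% and 1.6%.

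Rows of 1 host were seen in different libraries. Under the RefSeq annotation 51 of the 52 rows were assigned to 33 host genes, of which 28 were matched to active rows. SNORD87 lay within both MCMDC2 and SNHG6, and its host could not be settled. It was seen at 4378 FPKM in the first Ku DMSO library and at 2238 FPKM in the second Cov DMSO library only. GAS5 carries SNORD47, SNORD76 and SNORD79, and in the first Ku 250 nM library SNORD76 had 1355 FPKM with the other two at the floor. ZFAS1 carries SNORD12, SNORD12B and SNORD12C. SNORD12 was seen only in Ku DMSO, SNORD12C only in 1 Ku 250 nM library, and SNORD12B in 4 libraries, of which 1 was a Ku library at 50 nM with 175 FPKM. SNHG1 carries SNORD22, seen in all 12 libraries, together with SNORD26, seen in 1, and SNORD28, seen in 2. SNORD26 and SNORD28 are 75 nt long and SNORD22 is 126 nt long.

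Host genes of the main rows were seen in every library. SNHG1 had 163 and 137 FPKM in Ku DMSO, 77.5 and 63.9 FPKM at 50 nM, and 32.2 and 51.7 FPKM at 250 nM. Its log2 fold change at 250 nM was -1.84 (SE 0.23, adjusted p = 0.000361, limma) beside -2.51 for SNORD22. That call was lost without the first or the second DMSO library (adjusted p = 0.00356 and 0.00188, limma) and without a minimum FPKM (0.00184). In Cov cells SNHG1 had 151 and 168 FPKM in DMSO, 66.9 and 69.4 FPKM at 50 nM, and 64.3 and 58.8 FPKM at 250 nM. Its log2 fold change there was -1.36 (SE 0.09, adjusted p = 5e-06, limma) beside -4.15 for SNORD22. At 50 nM in Cov cells SNHG1 was called lower, with a log2 fold change of -1.22, and SNORD22 was not called. A test of the difference between a snoRNA and its host was not run.

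GAS5, the host of SNORD76, fell at 250 nM in both lines, with log2 fold changes of -0.90 (SE 0.09) in Ku and -1.35 (SE 0.12) in Cov cells. Without the second Ku 250 nM library the Ku calls on GAS5 and on EIF4A1, the host of SNORD10, were lost (adjusted p = 0.00109 and 0.00108, limma). SNORD76 kept 1355 and 1867 FPKM in Ku at that dose, while both Cov 250 nM libraries were at the floor from 2699 and 4795 FPKM in DMSO. The fall of SNORD76 in Cov cells was not called (adjusted p = 0.00547, limma). EIF4A1 had a log2 fold change of -0.84 (SE 0.08) in Ku cells at 250 nM, beside -2.68 for SNORD10. SNX5, the host of SNORD17 and a sorting nexin, had 78.6 and 66.5 FPKM in Ku DMSO and 44.2 and 39.8 FPKM at 250 nM (log2 fold change -0.77, adjusted p = 0.00123, not called). In Cov cells SNX5 fell with a log2 fold change of -1.58 (SE 0.12) beside -0.15 for SNORD17. On a scale that gives each library the same median, the log2 fold changes of SNHG1, GAS5, EIF4A1 and SNX5 at 250 nM were positive in both lines.

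**Figure D5:**
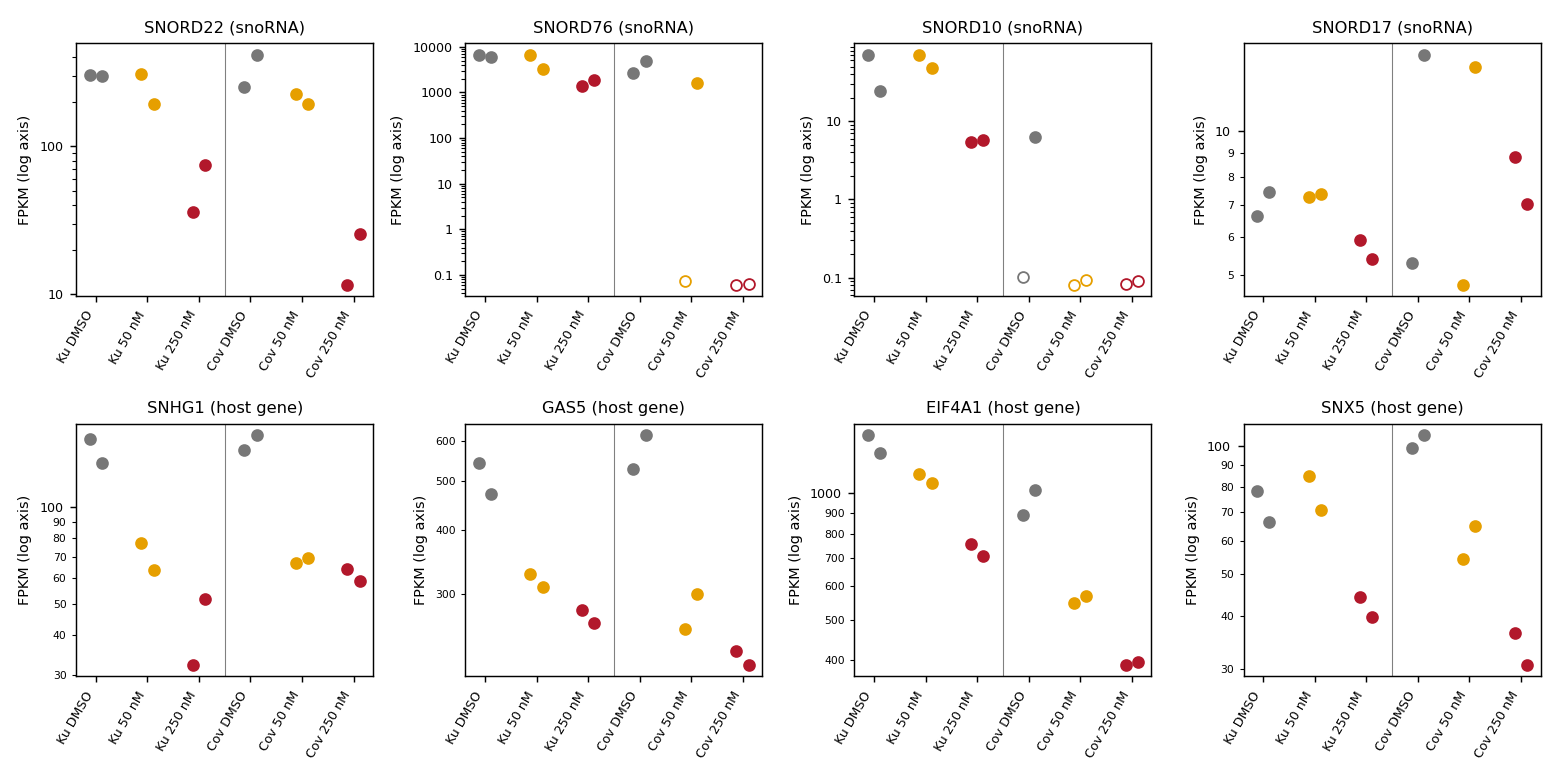
FPKM of SNORD22, SNORD76, SNORD10 and SNORD17 (upper panels) and of their host genes SNHG1, GAS5, EIF4A1 and SNX5 (lower panels), with 1 point per library on log axes that differ between panels. Open points are at the floor. At 250 nM (red) SNORD22 lies below DMSO (grey) in both lines, while SNORD17 in Cov cells at 250 nM lies between its DMSO values of 5.28 and 14.4 FPKM.

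Among the 28 host genes, 3 fell in the Ku line with 50 nM THZ1 and 20 with 250 nM, 17 and 28 fell likewise in the Cov line, and 0 rose on the spike-in scale, beside 0.0842%, 0.0491%, 0.0772% and 0.105% of all active rows. At an unadjusted p under 0.05 in limma 0 were higher as well, beside 1.46%, 0.182%, 0.4% and 0.309%. As shares these falls were 10.7%, 71.4%, 60.7% and 100%, beside 11.3%, 68.6%, 70.5% and 84% of all active rows. With each library scaled to the same median the direction turned, and 1 fell and 20 rose in Ku and 1 fell and 19 rose in Cov cells at 250 nM. Over all active rows 11.6% fell and 26.9% rose in Ku and 11.3% fell and 26.4% rose in Cov cells on that scale. The values that follow are on the spike-in scale. RABGGTB, a prenyl transferase subunit gene that carries SNORD45A and SNORD45C, fell at both doses in both lines, with log2 fold changes of -1.48 and -2.31 in Ku and -1.79 and -2.33 in Cov cells. SNORD45A was above the floor in both Ku DMSO libraries and in no treated Ku library. ZFAS1 was not called in Ku cells, with 455 and 349 FPKM in DMSO, 425 and 373 FPKM at 50 nM and 384 and 369 FPKM at 250 nM (adjusted p = 0.57 at 250 nM, limma). Its snoRNA SNORD12 was above the floor in the 2 Ku DMSO libraries only and was kept through them, so its groups had to differ and its calls are no comparison with ZFAS1. SNHG12, the host of SNORD99, had 78.0 and 69.9 FPKM in Ku DMSO, where SNORD99 was at the floor. In Cov DMSO, the only group with SNORD99 above the floor, SNHG12 had 32.9 and 36.8 FPKM.

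Genes for the proteins of box C/D particles fell at 250 nM in both lines on the spike-in scale, as did most active rows. Of 13 genes for the core and its assembly, 0 were called in Ku cells at 50 nM (6 lower and 0 higher at an unadjusted p under 0.05 in limma, beside 61% and 1.46% of all active rows), 13 fell at 250 nM, and in Cov cells 11 fell at 50 nM and 13 at 250 nM. The shares of all active rows that fell were 11.3%, 68.6%, 70.5% and 84% in that order. With each library scaled to the same median, 1 fell and 9 rose at 250 nM in each line, beside 11.6% lower and 26.9% higher over all active rows in Ku and 11.3% and 26.4% in Cov. FBL, the methyltransferase, had 508 and 463 FPKM in Ku DMSO and 274 and 262 FPKM at 250 nM, a log2 fold change of -0.86 (SE 0.07). NOP56 and NOP58, the scaffold pair, had log2 fold changes of -1.19 and -0.75 in Ku and -1.39 and -1.49 in Cov cells at 250 nM. The call on NOP58 in Ku cells was lost without the first DMSO library (adjusted p = 0.00298, limma), without either 250 nM library (0.00151 and 0.00344), with no trend (0.00145) and without a minimum FPKM (0.00182). NHP2L1, the older symbol of SNU13, had -0.73 and -1.09, and RRP9, specific to the U3 particle, -1.39 and -1.67. The lowest member in both lines at 250 nM was NUFIP1, an assembly factor, at -2.31 in Ku and -2.19 in Cov cells.

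Most genes for release from the intron and trimming of ends also fell at 250 nM, as did most active rows. Of 14, 1 fell in the Ku line with 50 nM THZ1 and 12 with 250 nM, and all 14 fell in Cov cells with either dose. These were shares of 7.14%, 85.7%, 100% and 100%, beside 11.3%, 68.6%, 70.5% and 84% of all active rows. Scaled to the same median, 4 fell and 5 rose in Ku and 4 fell and 3 rose in Cov cells at 250 nM, beside 11.6% lower and 26.9% higher over all active rows in Ku and 11.3% and 26.4% in Cov. In Ku cells EXOSC3, an exosome subunit, had the lowest log2 fold change at 50 nM (-1.63) and at 250 nM (-3.15). At 250 nM the 2 that were not called in Ku cells were XRN2 and NCBP1. In Cov cells at 250 nM the lowest was DBR1, the debranching enzyme that opens intron lariats, at -3.25.

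Other small RNA classes were read by the same libraries. Of 84 active box H/ACA rows, 6 fell and 2 rose in Ku cells at 50 nM, 8 fell at 250 nM, 8 fell and 2 rose in Cov cells at 50 nM, and 9 fell at 250 nM. The falls were 7.14%, 9.52%, 9.52% and 10.7% of these rows, beside 11.3%, 68.6%, 70.5% and 84% of all active rows, and the rises 2.38% at 50 nM in each line, beside 0.0842% and 0.0772%. Of 13 active Cajal body RNA rows (SCARNA names), 0 fell in Ku cells at either dose, 1 and 2 fell in Cov cells, and 0 rose in any comparison with DMSO. At an unadjusted p under 0.05 in limma 0 and 1 were lower in Ku cells, beside 61% and 89.6% of all active rows, and 1, SCARNA6, was higher at 50 nM in each line, beside 1.46% and 0.4%. SCARNA15, the Cajal body row that fell at both doses in Cov cells, was above the floor in DMSO libraries only. Its falls therefore follow from the choice of rows. The difference between these classes and the box C/D rows was not tested. Of 8 markers of epithelial and ovarian carcinoma cells, 6 in Ku and 7 in Cov had a DMSO mean above 1 FPKM. The exceptions were CDH1 (0.468 FPKM) and MUC16 (0.166 FPKM) in Ku and WT1 (0.653 FPKM) in Cov, and EPCAM stood at 4.13 FPKM in Ku against 162 FPKM in Cov. KRT8 had 2432 and 1133 FPKM and PAX8 136 and 124 FPKM as DMSO means of Ku and Cov. Of 9 markers of other cell types, 3 in Ku and 2 in Cov were above 1 FPKM, with the highest mean for COL1A2, a fibroblast collagen gene, at 42.2 FPKM in Cov.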

How the data were processed

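The authors extracted RNA with a column kit, normalized it by cell count, added ERCC spike-ins, made stranded poly(A) libraries and aligned reads to hg19 with HiSat. FPKM came from cuffquant and cuffnorm and were put on the spike-in scale by the authors. The deposited FPKM values, 1 table per line, were used as they are. Read counts and depth are unknown, so edgeR was not used and no counting intervals are given. Versions are not given in the sources used here. Columns not mapped to a sample numbered 0.

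Rows named SNORD and a digit, with FPKM above 1 in at least 1 of 12 libraries, were kept. Members and gene lists were chosen with earlier results of these data known. The test was limma 3.58.1 in R 4.3.3, run per line (eBayes with trend, two-sided, 3 groups of 2 libraries) on log2(FPKM + 1) of active rows. P-values rest on the spread between the 2 replicates of a group, pooled over the 3 groups of the line. That spread was drawn toward the trend over all active rows. Values up to 0.2 FPKM were taken as the floor. Lengths and hosts come from RefSeq, in which all 52 rows were matched. Its table has no strand, so a row within several genes kept only hosts of its strand in GENCODE. Sequences were cut from GRCh37. Named rows were the 12 with the highest mean FPKM, the 3 largest falls and rises per comparison among rows with a mean FPKM of 10 or more over the line's 6 libraries, rows with their own promoters (of which the 52 held none), rows nearest the minimum, host genes and core proteins. Rows called, rows above the floor in all compared libraries and rows that illustrate a pattern were named after their values were seen. Alternatives were a pseudocount of 0.1, no minimum or 10 FPKM, 2 other scalings, a replicate block, no trend, looser (adjusted p 0.05) and stricter (log2 fold change 1) thresholds, a fit of 2 groups, and each library left out in turn.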

Additional observations from a re-analysis of the deposited data

How the results depend on the processing

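With a pseudocount of 0.1, 15 rows fell in Ku cells at 250 nM, and 19 and 24 in Cov cells at 50 nM and 250 nM, beside 88.1%, 88.7% and 93% of all active rows. An adjusted p under 0.05, or a fit of only the 2 groups, gave 14 in Cov cells at 250 nM, beside 88.3% and 86.7%. Without a minimum FPKM 3 rows fell and 0 rose in Ku cells at 50 nM, beside 0.0127% and 0% of all rows, and a fit of only the 2 groups left 0 that rose there, beside 0.00702%. With 1 library left out, falls numbered 4 to 9 and rises 0 to 6 in Ku cells at 50 nM, falls 6 to 11 and rises 0 to 1 at 250 nM. In Cov cells falls numbered 6 to 12 and rises 0 to 3 at 50 nM, falls 9 to 14 and rises 0 to 2 at 250 nM. The share of all active rows called lower also moved when a library was left out. In Ku cells at both doses, and in Cov cells at 50 nM, it was smaller than with all libraries in every such fit. In Cov cells at 250 nM it was smaller in some of these fits and larger in others. The ranges are therefore not a stable result about the 52 rows alone. The cause of these moves was not tested.

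Each library scaled to the same median, or by median-of-ratios, moved the median log2 fold change over all active rows from -1.11 to 0.29 or 0.11 in Ku and from -1.31 to 0.31 or 0.12 in Cov cells at 250 nM. Values given in pairs are for these 2 scalings in that order. At 250 nM SNORD17 turned to 1.44 and 1.17 in Ku and 1.68 and 1.40 in Cov cells, and 1 row, SNORD17, rose in Ku cells under each. At 50 nM SNORD22 turned to 0.41 and 0.31 in Ku and 0.60 and 0.46 in Cov cells, SNORD76 to 0.26 and 0.16 in Ku, SNORD17 to 0.94 and 0.83, SNORD15B to 0.32 and 0.19 and SNORD79 to 0.62 and 0.49 in Cov cells. Of the other genes at 250 nM in Ku cells, EIF4A1 turned to 1.14 and 0.82, FBL to 1.12 and 0.80, GAS5 to 1.08 and 0.75, NHP2L1 to 1.23 and 0.91, NOP56 to 0.77 and 0.45, NOP58 to 1.22 and 0.90, RRP9 to 0.50 and 0.19, SNX5 to 1.18 and 0.86, ZFAS1 to 1.89 and 1.57, and SNHG1 to 0.11 under the first scaling only. In Cov cells EIF4A1 turned to 0.80 and 0.49, FBL to 1.02 and 0.71, GAS5 to 0.73 and 0.42, NHP2L1 to 0.96 and 0.66, NOP56 to 0.67 and 0.36, NOP58 to 0.57 and 0.26, RRP9 to 0.35 and 0.0492, SNHG1 to 0.69 and 0.39, SNX5 to 0.46 and 0.15, and ZFAS1 to 1.11 and 0.80. RABGGTB stayed below zero but lost its call under the first of these scalings in both lines, at -0.37 in Ku and -0.30 in Cov cells.

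With 1 library left out, log2 fold changes turned for rows that were not called. SNORD17 ranged from -0.0186 to 0.12 in Ku and from -0.77 to 0.57 in Cov cells at 50 nM, and from -0.79 to 0.50 in Cov cells at 250 nM. In Ku cells at 50 nM SNORD10 ranged from -0.25 to 1.22, SNORD22 from -0.63 to 0.0463 and SNORD76 from -0.96 to 0.0696. ZFAS1 at 250 nM in Ku cells ranged from -0.27 to 0.11.

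Deviations of same-numbered libraries correlated between -0.0703 and 0.0282 over active rows and between -0.128 and 0.165 over the 52 rows, and the numbers were not taken as pairs. With a replicate block 5 rows fell and 1 rose in Ku cells at 50 nM, 6 fell at 250 nM, and 6 and 9 fell in Cov cells, where all active rows gave 6.94% and 0.0632%, 66.6%, and 51% and 78.6%. SNORD22 in Ku cells at 250 nM was not called under it (adjusted p = 0.00179, limma), nor was ZFAS1 in Cov cells, and SNORD10 and SNX5 in Ku cells at 250 nM were. Depth is unknown and 453 of 624 values were at the floor, so a row at the floor was not detectable, which does not show that the snoRNA was absent.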
